A study of Mus musculus with 6 samples.

Results

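Cell cycle and DNA replication genes were examined in cultured primary mouse astrocytes given human IgG against aquaporin-4 (AQP4-IgG), the water channel protein of astrocytes, or a human control IgG (Control-IgG). The 44 genes were taken by symbol from a deposited table of 14147 genes, and each symbol matched 1 row. They comprise 9 genes of replication licensing and firing, 4 of DNA synthesis and nucleotide supply, 16 of mitosis and proliferation, 8 G1 and S phase cyclins and kinases, 2 transcription factors and 5 inhibitors. The labels give 3 AQP4-IgG and 3 Control-IgG libraries, numbered 1 to 3 in each group, all from wild-type (WT) cells at 24 h. The series title speaks of conditioned medium, and the labels do not say whether the IgG reached the cells directly or in such medium. Nor do they tell if each library stands for its own culture or animal, so every p-value here rests on a spread that may be technical.

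A dividing cell commits in G1, when D-type cyclins with Cdk4 and Cdk6, and then cyclin E with Cdk2, release E2F factors from the retinoblastoma proteins. E2F turns on the genes that load and fire the MCM helicase and supply nucleotides, and later B-Myb, FoxM1 and the MuvB complex turn on the mitotic genes. The inhibitors of the INK4 family bind Cdk4 and Cdk6, while p21 (Cdkn1a) and p27 (Cdkn1b) bind a wider set of cyclin-kinase pairs. Astrocytes of the healthy adult brain rarely divide, whereas astrocytes cultured from young rodents keep dividing for a time, and division can resume after injury.

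The promoters of the licensing and of the mitotic genes differ in the short sequences they carry. RefSeq promoters (GRCm38.p6, 250 bases before to 50 after each start) were at hand for 37 of the 44 genes, 5 of which have more than 1 start. The CHR element of mitotic genes (TTTGAA or TTCGAA, the second of which reads alike on both strands) was found on either strand in 11 of 14 mitotic promoters. It stood in 3 of 8 licensing and firing promoters, and in 15.7% of the promoters of the 9103 genes tested here that have an entry. In the last 150 bases before the start alone, the CHR share was 35.7% of mitotic promoters and 7.37% of the tested genes. An E2F sequence (TTTCCCGC, TTTGGCGC, TTTCGCGC or TTTGCCGC) was found in 6 of 8 licensing and firing promoters, in 1 of 14 mitotic promoters and in 4.75% of the tested genes. Of the promoters of DNA synthesis and nucleotide supply, 0 of 4 held an E2F sequence. It was found in 1 of 5 G1 and S phase promoters, 1 of 5 inhibitor promoters and 0 of 1 transcription factor promoter. In those last 150 bases it was found in 3 of 8 licensing and firing promoters and 2.64% of the tested genes. The CCAAT box was found in 13 of 14 mitotic promoters and 6 of 8 licensing and firing promoters, against 43.0% of the tested genes. The GC box (GGGCGG) was found in 12 of 14 mitotic promoters and 6 of 8 licensing and firing promoters, against 70.5% of the tested genes. In the last 150 bases it was found in 6 of 14 mitotic promoters and 59.7% of the tested genes. These motifs are not parts of each other, but matches can overlap, as a pair of E2F matches does in Mcm5 and in Mcm6. A match is a match of letters, and no match says only that these letters are not in the window.

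The 250 bases before the start are printed for 4 genes to show these elements, with CCAAT, CHR and E2F letters of either strand in capitals. Cdk1, the mitotic kinase, carries all 3 elements. Mcm6, a helicase subunit, is shown for its 3 E2F matches, and Ccnb1 and Cdc45 for their levels, which are described further on. Their positions in GRCm38.p6 are chr10:69352913-69353162 (minus strand) for Cdk1, chr13:100786487-100786736 (minus) for Ccnb1, chr1:128359706-128359955 (minus) for Mcm6 and chr16:18811973-18812222 (minus) for Cdc45.
Cdk1: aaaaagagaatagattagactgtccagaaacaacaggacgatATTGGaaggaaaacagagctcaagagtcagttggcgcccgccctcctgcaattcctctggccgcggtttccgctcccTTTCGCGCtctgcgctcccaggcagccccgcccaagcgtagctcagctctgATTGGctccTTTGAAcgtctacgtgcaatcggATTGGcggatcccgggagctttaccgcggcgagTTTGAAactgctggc
Ccnb1: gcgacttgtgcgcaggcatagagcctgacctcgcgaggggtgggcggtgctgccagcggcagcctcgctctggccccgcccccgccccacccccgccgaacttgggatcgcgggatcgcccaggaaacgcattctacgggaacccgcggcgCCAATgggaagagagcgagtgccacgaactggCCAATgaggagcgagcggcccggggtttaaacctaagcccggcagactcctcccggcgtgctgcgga
Mcm6: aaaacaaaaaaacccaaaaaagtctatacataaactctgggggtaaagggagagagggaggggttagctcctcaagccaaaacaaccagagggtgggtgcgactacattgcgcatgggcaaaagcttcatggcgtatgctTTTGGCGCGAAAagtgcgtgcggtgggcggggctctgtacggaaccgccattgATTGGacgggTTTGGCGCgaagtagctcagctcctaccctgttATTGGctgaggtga
Cdc45: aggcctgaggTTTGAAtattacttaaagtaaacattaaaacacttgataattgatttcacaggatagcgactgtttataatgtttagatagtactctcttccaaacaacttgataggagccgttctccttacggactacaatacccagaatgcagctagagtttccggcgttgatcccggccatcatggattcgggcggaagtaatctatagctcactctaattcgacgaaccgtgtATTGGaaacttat
In Cdk1 the E2F match begins at base -131, counted back from the start, and the CHR matches at -71 and -15. In Mcm6 the E2F matches begin at -110, -106 and -47, and the first pair overlaps. Ccnb1 has CCAAT boxes and no CHR or E2F match in the window.

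None of the 44 genes passed the test for a change with AQP4-IgG. All 44 had a mean of at least 1 FPKM (reads or fragments per kilobase of exon, scaled to library size, the deposited unit) and were tested with limma on log2(FPKM + 1). Of these, 0 passed a Benjamini-Hochberg adjusted p of 0.05, while 2.09% of the 12334 genes tested did (180 higher and 78 lower). An unadjusted p under 0.05 was reached by 2 of the 44, Cdc45 and Ccna2, and by 13.3% of all tested genes. Limma-voom on recovered reads also called 0 genes of the 42 it covered, while it called 489 of the 11550 genes it tested. An unadjusted p under 0.05 was reached there by 3 of the 42. The share of all its genes at that p was not counted. The differences of the 44 genes ran from -0.21 to 0.14 on the log2(FPKM + 1) scale. For 36 of them (81.8%) the 95% interval lay within a 1.25-fold change either way, near the 80.2% of all tested genes. The other 8 intervals lay within 1.5-fold. Over all tested genes, 11694 of 12334 intervals lay within 1.5-fold. The farthest ends of these intervals were a change of FPKM + 1 by -26.4%, in Ccne2, and by 24.1%, in Cenpe. The scale of log2(FPKM + 1) understates the change of the least abundant genes.

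All AQP4-IgG libraries lay on 1 side of all Control-IgG libraries in 4 of the 44 genes, Cdc45, Mcm4, Ccna2 and Ccnb1, each lower with AQP4-IgG. Over all tested genes this separation was found in 19%, and in 8.58% with AQP4-IgG lower. The 4 lower genes are near that second share, and 0 of the 44 were separated with AQP4-IgG higher, against 1288 of 12334 tested genes. The difference was below 0 in 30 of the 44 genes, against 49.99% of all tested genes. That count rests partly on Control-IgG 2, since 22 of the 44 differences were below 0 without this library.

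**Figure D1:**
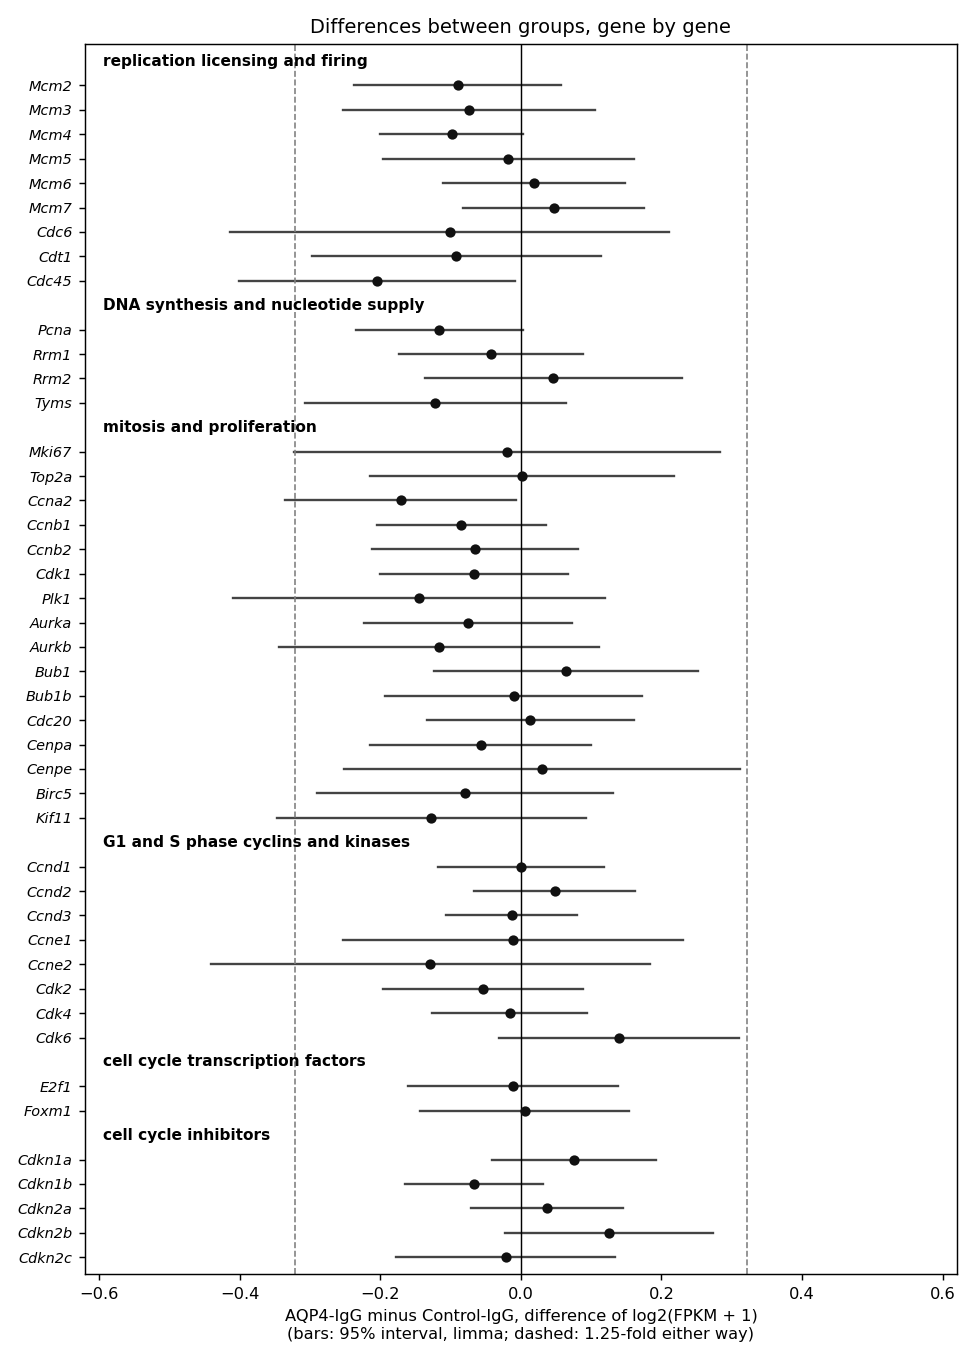
Difference between AQP4-IgG and Control-IgG (log2(FPKM + 1), x axis) for each of the 44 genes, by role, with the 95% interval from limma; dashed lines mark 1.25-fold. The intervals of Cdc45 and Ccna2 end just below 0, and none of the 44 genes passed an adjusted p of 0.05.

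The libraries had 17.9 to 20.6 M reads, as recovered from the deposited values. Control-IgG 2 was the shallowest. Astrocyte markers were present in both groups, and 10 of 10 were tested. Their summed level was 354 to 398 FPKM in AQP4-IgG libraries and 309 to 355 FPKM in Control-IgG libraries, with Aqp4 and Gfap the most abundant. Of the 10, 3 were higher (Aqp4, Slc1a3 and Slc1a2) and 7 did not pass. Among these 7, Aldh1l1, Gja1, Gfap and Sox9 had differences of 0.37, 0.13, 0.11 and 0.01. Those of Aldoc, S100b and Fgfr3 were -0.12, -0.08 and -0.05. Of 13 microglia and macrophage markers, 12 were tested and 1 was lower (Cx3cr1). Of the 12, 11 had a difference below 0, against 49.99% of all tested genes, with a median of -0.16. Itgam went the other way without overlap, at 4.33 to 5.08 FPKM in AQP4-IgG and 3.20 to 3.89 FPKM in Control-IgG libraries (difference 0.36, adjusted p = 0.0707, limma). The sums were 1073 to 1216 FPKM in AQP4-IgG and 1083 to 1378 FPKM in Control-IgG libraries, mostly from Lyz2. Of 9 fibroblast, meningeal and mural markers, 6 were tested and 1 was lower (Acta2), while Dcn, Lum and Rgs5 were not among the deposited genes. The contractile genes Acta2, Tagln and Myh11 had differences of -0.38, -0.24 and -0.46. The collagens Col1a1, Col1a2 and Col3a1 overlapped between groups, at -0.05, 0.04 and 0.09. The sums were 2031 to 2373 FPKM in AQP4-IgG and 2677 to 2936 FPKM in Control-IgG libraries, mostly from Acta2. Of 8 oligodendrocyte lineage markers 3 were tested and 0 passed. Mog, Pdgfra and Sox10 were not among the deposited genes, and Mbp stood at 0.791 FPKM or less in every library. Olig1 lay at 149 to 167 FPKM in AQP4-IgG and 172 to 179 FPKM in Control-IgG libraries. Olig2 lay at 44.2 to 48.0 FPKM in AQP4-IgG and 50.2 to 53.8 FPKM in Control-IgG libraries. Of 7 neuron markers, Dcx, Rbfox3, Snap25 and Syt1 were not among the deposited genes. The 3 tested, Tubb3, Stmn2 and Map2, summed to 78.9 to 86.1 FPKM in AQP4-IgG and 78.4 to 86.2 FPKM in Control-IgG libraries. Of 5 endothelial markers, Cldn5, Pecam1 and Tek were not among the deposited genes. The 2 listed, Cdh5 and Kdr, summed to 4.07 to 4.20 FPKM in AQP4-IgG and 3.31 to 3.83 FPKM in Control-IgG libraries, mostly from Cdh5. Cdh5 did not pass (difference 0.23, adjusted p = 0.162, limma). Kdr, at 0.478 to 0.760 FPKM, overlapped between groups and was too low to be tested. In such bulk samples fewer cells of a type and less RNA per cell cannot be told apart, and in which cells the cell cycle genes were expressed was not tested.

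Replication licensing begins when Cdc6 and Cdt1 load the MCM2-7 ring onto DNA, and Cdc45 then joins it to form the active helicase. Of these 9 genes, 7 had a difference below 0 and 2 above, with a median of -0.09 against 0.00 over all tested genes. The median was -0.03 without AQP4-IgG 3, -0.01 without Control-IgG 1 and -0.12 without Control-IgG 3. Cdc45 had the lowest difference of all 44 genes. It measured 3.14, 2.74 and 2.33 FPKM in AQP4-IgG 1 to 3, against 3.32, 3.37 and 3.19 FPKM in Control-IgG 1 to 3. The groups did not overlap, but AQP4-IgG 1 was only just under the lowest Control-IgG library, and the difference was -0.21 (SE 0.0861, unadjusted p = 0.0423, adjusted p = 0.348, limma). Cdc45 rests on 168 to 237 reads a library.

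The MCM subunits were more abundant than Cdc45. Mcm4, the most abundant of them, measured 12.01, 12.4 and 12.1 FPKM in AQP4-IgG 1 to 3, against 13.2, 13.5 and 12.7 FPKM in Control-IgG 1 to 3. Its groups did not overlap either, at a difference of -0.10 (SE 0.0444, adjusted p = 0.39, limma) with a 95% interval from -12.9% to 0.174%. Mcm2 measured 5.08, 5.19 and 4.46 FPKM in AQP4-IgG 1 to 3, and 5.22, 5.45 and 5.18 FPKM in Control-IgG 1 to 3. AQP4-IgG 3 was the low library and AQP4-IgG 2 lay inside the Control-IgG range (difference -0.09, SE 0.0647, adjusted p = 0.658, limma). Mcm3 and Mcm5 averaged 8.09 ± 0.699 and 5.98 ± 0.336 FPKM with AQP4-IgG, against 8.57 ± 0.804 and 6.08 ± 0.679 FPKM in Control-IgG libraries (SD, n = 3 each). Mcm6 and Mcm7 had means on the other side, at 11.7 ± 0.223 and 8.98 ± 0.443 FPKM with AQP4-IgG, and 11.5 ± 0.817 and 8.66 ± 0.428 FPKM in Control-IgG libraries. The log2 differences of the 6 ring subunits thus ran from -0.10 in Mcm4 to 0.05 in Mcm7, and 23.3% of the 50-base stretches of Mcm7 also occur in other genes.

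The loaders were less abundant. Cdt1, which geminin holds back until G1, had a mean of 3.56 ± 0.221 FPKM in AQP4-IgG libraries and 3.88 ± 0.58 FPKM in Control-IgG libraries (difference -0.09, adjusted p = 0.768, limma). Cdc6 was the scarcest of the 44 genes, with 1.14, 0.891 and 1.18 FPKM in AQP4-IgG 1 to 3, against 1.25, 1.65 and 0.82 FPKM in Control-IgG 1 to 3. The highest and the lowest value of Cdc6 both came from Control-IgG libraries, on 86 to 155 reads a library.

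Among the genes of synthesis, Pcna encodes the sliding clamp of the replicative polymerases. Pcna measured 26.3, 26.4 and 25.3 FPKM in AQP4-IgG 1 to 3, against 29.5, 29.2 and 26.3 FPKM in Control-IgG 1 to 3. The AQP4-IgG libraries lay close together and at the level of Control-IgG 3, below the other Control-IgG libraries (difference -0.12, SE 0.0519, adjusted p = 0.388, limma). Tyms, which makes thymidylate, measured 1.54, 1.84 and 1.59 FPKM in AQP4-IgG 1 to 3, and 2.08, 1.83 and 1.74 FPKM in Control-IgG 1 to 3. AQP4-IgG 2 stood inside the Control-IgG range (difference -0.12, SE 0.0814, adjusted p = 0.624, limma). The ribonucleotide reductase subunits Rrm1 and Rrm2 averaged 7.18 ± 0.0891 and 25.1 ± 0.66 FPKM with AQP4-IgG, and 7.44 ± 0.503 and 24.3 ± 2.92 FPKM in Control-IgG libraries, with adjusted p of 0.848 and 0.892 (limma).

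The 16 mitotic and proliferation genes had mean levels from 1.79 to 11.0 FPKM. Of these, 12 had a difference below 0 and 4 above, with a median of -0.07. With a library left out the median ran from -0.09, without Control-IgG 1, to -0.01, without Control-IgG 2. Mki67, the source of the Ki-67 antigen that marks cycling cells, measured 4.25, 5.39 and 5.29 FPKM in AQP4-IgG 1 to 3, against 4.18, 6.22 and 4.88 FPKM in Control-IgG 1 to 3. Its Control-IgG libraries enclosed all AQP4-IgG libraries, and the difference was -0.02 (SE 0.13, adjusted p = 0.975, limma), with a 95% interval from -20.0% to 21.7%. Top2a, the topoisomerase that untangles sister chromatids, measured 6.87, 7.63 and 6.93 FPKM in AQP4-IgG 1 to 3, and 6.88, 8.41 and 6.24 FPKM in Control-IgG 1 to 3. Again the highest and the lowest library were both Control-IgG (difference 0.00, SE 0.0943, adjusted p = 0.999, limma).

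Among the mitotic genes the cyclins Ccna2 and Ccnb1 had the smallest p. Ccna2, the cyclin of S phase and G2, measured 4.79, 5.28 and 4.92 FPKM in AQP4-IgG 1 to 3, against 5.54, 6.41 and 5.35 FPKM in Control-IgG 1 to 3. The groups did not overlap, with AQP4-IgG 2 close to Control-IgG 3, and the difference was -0.17 (SE 0.0721, unadjusted p = 0.0429, adjusted p = 0.35, limma). Ccnb1, the cyclin that drives entry into mitosis, measured 5.85, 6.37 and 6.17 FPKM in AQP4-IgG 1 to 3, and 6.54, 6.69 and 6.44 FPKM in Control-IgG 1 to 3. Here too the groups did not overlap, at a difference of -0.08 (SE 0.0526, adjusted p = 0.585, limma). Ccnb2 overlapped, with 6.99 ± 0.597 FPKM in AQP4-IgG libraries and 7.35 ± 0.188 FPKM in Control-IgG libraries. Of the 50-base stretches of Ccnb1, 23.4% are shared with its pseudogene Ccnb1-ps or other transcripts, and 11.4% of those of Ccna2 with Exosc9 on the opposite strand, which leaves both levels uncertain. Such sharing passed 5% in 14 of the 44 genes, among them Pcna at 19.1% and Ccne2 at 14.4%.

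The kinases and checkpoint genes of mitosis did not pass the test either. Cdc20, the activator of the anaphase-promoting complex and the most abundant gene of this role, measured 11.95, 10.2 and 11.0 FPKM in AQP4-IgG 1 to 3, against 11.2, 11.3 and 10.3 FPKM in Control-IgG 1 to 3 (difference 0.01, SE 0.0646, adjusted p = 0.965, limma). Its libraries were intermixed. Cdk1 averaged 7.33 ± 0.444 FPKM in AQP4-IgG and 7.72 ± 0.332 FPKM in Control-IgG libraries (difference -0.07, adjusted p = 0.737, limma). Plk1, a kinase of spindle assembly and mitotic exit, averaged 6.62 ± 1.13 FPKM in AQP4-IgG and 7.38 ± 0.706 FPKM in Control-IgG libraries, with AQP4-IgG 3 the lowest library at 5.38 FPKM. The Aurora kinases Aurka, of the centrosome, and Aurkb, of the chromosomal passenger complex, averaged 4.14 ± 0.144 and 3.12 ± 0.168 FPKM with AQP4-IgG, and 4.42 ± 0.336 and 3.49 ± 0.642 FPKM in Control-IgG libraries. Both overlapped between groups.

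The remaining mitotic genes were low and intermixed. The spindle checkpoint genes Bub1 and Bub1b averaged 2.48 ± 0.269 and 3.05 ± 0.222 FPKM with AQP4-IgG, and 2.33 ± 0.205 and 3.08 ± 0.32 FPKM in Control-IgG libraries. Cenpa, the histone variant of centromeres, averaged 2.17 ± 0.0325 and 2.30 ± 0.164 FPKM in AQP4-IgG and Control-IgG libraries. Cenpe, a kinetochore motor, averaged 1.81 ± 0.289 FPKM in AQP4-IgG and 1.76 ± 0.412 FPKM in Control-IgG libraries. Birc5, or survivin, a partner of Aurkb, averaged 2.60 ± 0.0999 FPKM in AQP4-IgG and 2.83 ± 0.469 FPKM in Control-IgG libraries. Kif11, the motor that pushes spindle poles apart, averaged 3.41 ± 0.573 and 3.80 ± 0.143 FPKM in AQP4-IgG and Control-IgG libraries, with AQP4-IgG 1 the lowest at 2.75 FPKM. The adjusted p of these 6 genes lay between 0.679 and 0.977 (limma).

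**Figure D2:**
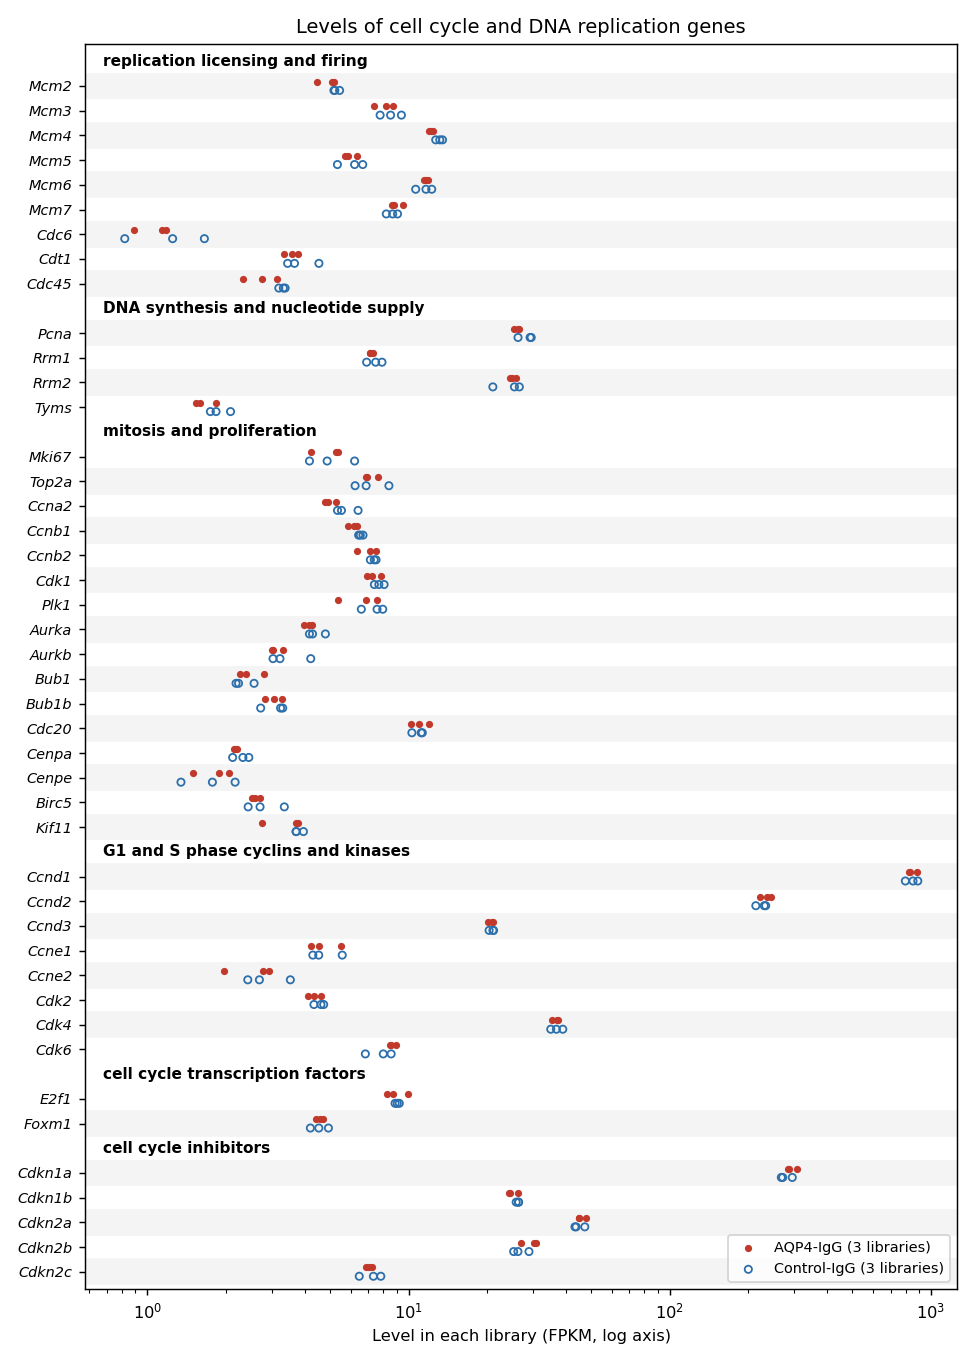
Level of each of the 44 genes in every library (FPKM, log axis), AQP4-IgG as filled points above Control-IgG as open points, by role. The D-type cyclin Ccnd1, at 798 to 890 FPKM, and Cdkn1a, at 267 to 308 FPKM, stand far above the mitotic and licensing genes, and the groups overlap in all but 4 genes.

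Levels per length differed far more between roles than between groups. The highest of the 44 was Ccnd1, cyclin D1, followed by the inhibitor Cdkn1a and by Ccnd2, cyclin D2. The median level over both groups was 4.66 FPKM for the mitotic genes, 6.03 FPKM for licensing and firing, 14.5 FPKM for the G1 and S phase cyclins and kinases and 28.1 FPKM for the inhibitors, against 7.58 FPKM over all tested genes.

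Ccnd1 measured 826, 828 and 888 FPKM in AQP4-IgG 1 to 3, against 798, 853 and 890 FPKM in Control-IgG 1 to 3. The mean was the same to 3 digits, 847 ± 35.2 FPKM in AQP4-IgG and 847 ± 46.5 FPKM in Control-IgG libraries (SD, n = 3 each), and the difference was 0.00 (SE 0.0519, adjusted p = 0.999, limma). Its 95% interval ran from -7.85% to 8.57%. Of its 50-base stretches, 21.6% also occur in LTO1, whose exons overlap those of Ccnd1 on the opposite strand.

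The authors' deposited table lists Ccnd1 with an adjusted p of 0.00426 and a log2 fold change of 0.11, the only 1 of the 44 genes with an adjusted p under 0.05 there. In the authors' deposited table the next smallest adjusted p among the 44 is that of Ccna2, 0.444. Among the 11550 tested genes with recovered reads, Ccnd1 was of rank 8, 9 and 9 from the top in AQP4-IgG 1 to 3. It was of rank 10 in each Control-IgG library. Genes whose reads were not recovered, such as Acta2, are outside this ranking. Quantile normalization gives genes of the same rank the same value in every library. It set Ccnd1 to 12.11, 12.07 and 12.07 log2 CPM (reads scaled to the library total) in AQP4-IgG 1 to 3, and to 12.01 in each of Control-IgG 1 to 3. Before it the values were 12.02, 12.02 and 12.12 with AQP4-IgG and 11.97, 12.07 and 12.13 with Control-IgG. With quantile normalization, an alternative added after the data were seen, limma-voom gave a difference of 0.07 (SE 0.0294, adjusted p = 0.274), and without it 0.00 (adjusted p = 0.999). The difference after quantile normalization was smaller than the authors' 0.11, and Ccnd1 did not pass. The test behind the authors' table is not given in the sources used here, and whether it used such a normalization was not tested.

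**Figure D3:**
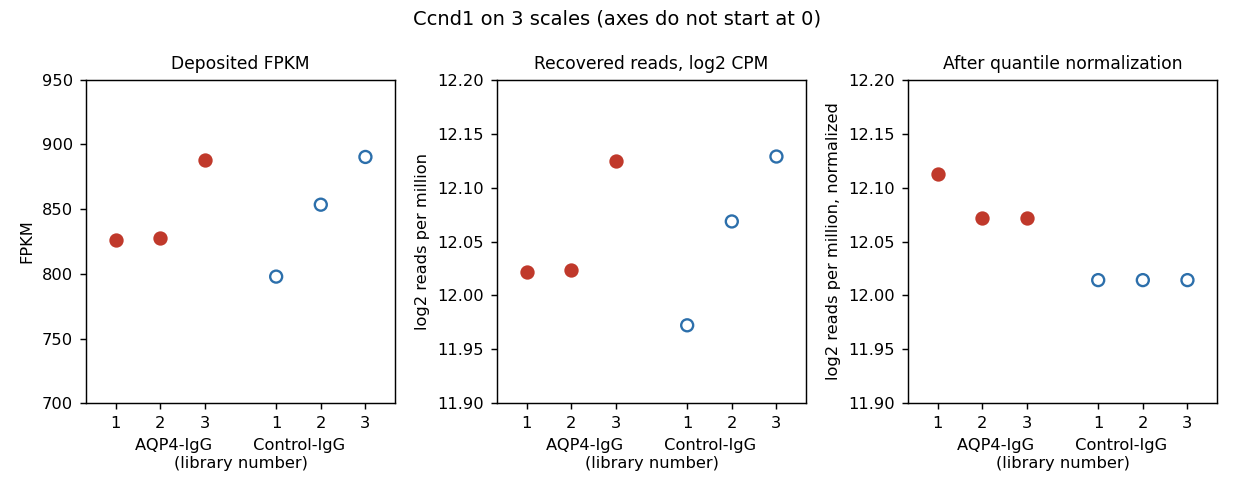
Ccnd1 in the 6 libraries as deposited FPKM, as log2 CPM and after quantile normalization, with AQP4-IgG on the left of each panel; the axes do not start at 0. The groups overlap on the first 2 scales, and on the last the Control-IgG libraries share the value 12.01 with all AQP4-IgG libraries above it.

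The other G1 and S phase genes overlapped between groups. Ccnd2 measured 221, 235 and 243 FPKM in AQP4-IgG 1 to 3, against 214, 230 and 233 FPKM in Control-IgG 1 to 3 (difference 0.05, SE 0.0502, adjusted p = 0.782, limma). Cdk6, a kinase partner of the D-type cyclins, had the highest difference of the 44 genes. It measured 8.49, 8.95 and 8.57 FPKM in AQP4-IgG 1 to 3, and 8.003, 8.58 and 6.83 FPKM in Control-IgG 1 to 3, so that Control-IgG 2 stood within the AQP4-IgG range and Control-IgG 3 low (difference 0.14, SE 0.075, adjusted p = 0.5, limma). Cdk4, the other partner, averaged 36.5 ± 1.07 and 36.9 ± 1.97 FPKM in AQP4-IgG and Control-IgG libraries. Ccnd3, the remaining D-type cyclin, averaged 20.6 ± 0.476 FPKM in AQP4-IgG libraries and 20.8 ± 0.441 FPKM in Control-IgG libraries, so each of the D-type cyclins and both kinases had a 95% interval that included 0.

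Cyclin E and its kinase were lower in level. Ccne1 averaged 4.76 ± 0.662 FPKM in AQP4-IgG libraries and 4.80 ± 0.679 FPKM in Control-IgG libraries. Ccne2 averaged 2.55 ± 0.509 FPKM in AQP4-IgG and 2.88 ± 0.577 FPKM in Control-IgG libraries, with AQP4-IgG 1 the lowest library at 1.97 FPKM and Control-IgG 2 the highest at 3.53 FPKM. Cdk2 averaged 4.36 ± 0.268 FPKM in AQP4-IgG libraries and 4.57 ± 0.2 FPKM in Control-IgG libraries. Their adjusted p lay between 0.788 and 0.982 (limma).

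Both transcription factors had differences near 0. E2f1, an activator of the replication genes, measured 9.94, 8.75 and 8.29 FPKM in AQP4-IgG 1 to 3, against 9.05, 9.22 and 8.88 FPKM in Control-IgG 1 to 3 (difference -0.01, SE 0.0654, adjusted p = 0.971, limma). The AQP4-IgG libraries enclosed the Control-IgG libraries. Foxm1, an activator of the mitotic genes, measured 4.60, 4.70 and 4.43 FPKM in AQP4-IgG 1 to 3, and 4.54, 4.94 and 4.21 FPKM in Control-IgG 1 to 3, here with the Control-IgG libraries on the outside (difference 0.01, SE 0.065, adjusted p = 0.985, limma).

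The inhibitors, most of them above the median level of all tested genes, did not pass the test. Their differences had a median of 0.04, with 3 above 0 and 2 below. Cdkn1a, the p53 target that encodes p21, measured 308, 287 and 283 FPKM in AQP4-IgG 1 to 3, against 294, 271 and 267 FPKM in Control-IgG 1 to 3. Control-IgG 1 was above AQP4-IgG 2 and 3, and the difference was 0.08 (SE 0.0513, adjusted p = 0.633, limma), with a 95% interval from -2.85% to 14.2%. Cdkn2b, the INK4 inhibitor p15, measured 30.7, 27.0 and 30.2 FPKM in AQP4-IgG 1 to 3, and 25.3, 26.2 and 28.9 FPKM in Control-IgG 1 to 3. AQP4-IgG 2 lay inside the Control-IgG range (difference 0.13, SE 0.0649, adjusted p = 0.478, limma).

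Cdkn1b measured 24.2, 26.2 and 24.6 FPKM in AQP4-IgG 1 to 3, and 26.4, 26.4 and 25.8 FPKM in Control-IgG 1 to 3 (difference -0.07, SE 0.0431, adjusted p = 0.607, limma). AQP4-IgG 2 lay between the Control-IgG libraries. Cdkn2a, whose row covers both p16 and Arf transcripts, averaged 46.0 ± 1.68 FPKM in AQP4-IgG libraries and 44.8 ± 2.16 FPKM in Control-IgG libraries (adjusted p = 0.838, limma). Cdkn2c, the INK4 inhibitor p18, averaged 7.07 ± 0.208 and 7.21 ± 0.686 FPKM in AQP4-IgG and Control-IgG libraries (adjusted p = 0.945, limma).

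The mitotic genes varied together between libraries, most visibly in Control-IgG 2. Relative to the Control-IgG mean, the 16 mitotic genes averaged -0.09, -0.03 and -0.04 in AQP4-IgG 1 to 3 and -0.04, 0.11 and -0.07 in Control-IgG 1 to 3, as means of log2(FPKM + 1). Control-IgG 2 was the highest of the 6 libraries in 12 of the 16, against 19.2% of all tested genes. The SD between libraries was 0.0977 in Control-IgG and 0.0335 in AQP4-IgG, and the distance between the group means was -0.06. Control-IgG 2 was also the shallowest library, and without it the median difference of the mitotic genes was -0.01.

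The 13 replication genes, which unite licensing, firing and synthesis, had another order of libraries. They averaged -0.04, -0.05 and -0.11 in AQP4-IgG 1 to 3 and 0.05, 0.06 and -0.11 in Control-IgG 1 to 3, so that the library numbered 3 was the low one in each group. The inhibitors averaged 0.06, 0.00 and 0.03 in AQP4-IgG 1 to 3 and lay at 0 in the Control-IgG libraries, with an SD of 0.00449. That SD is of a mean over 5 genes that moved in different directions. From Control-IgG 1 to 3, Cdkn2b went from 25.3 to 28.9 FPKM and Cdkn1a from 294 to 267 FPKM. As a description over 6 libraries, and for genes that share each library's depth and handling, the mean pairwise Pearson r of deviations from the group means was 0.565 among replication genes, 0.325 among mitotic genes and -0.19 among inhibitors, against 0.0115 over all tested genes.

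**Figure D4:**
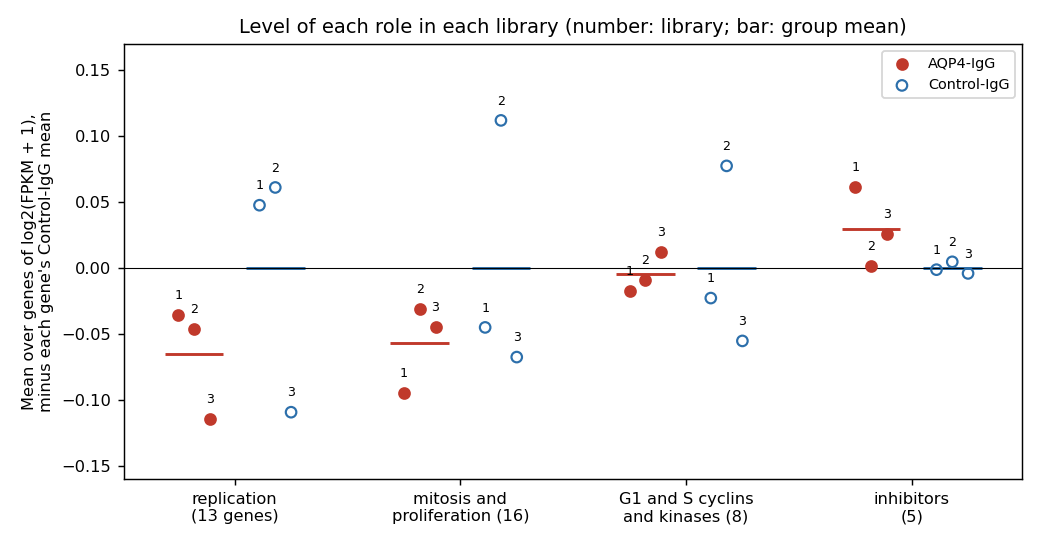
Mean log2(FPKM + 1) over the genes of a role in each library, relative to each gene's Control-IgG mean, with AQP4-IgG (filled) left of Control-IgG (open); numbers give the library and bars the group mean. Control-IgG 2 is at 0.11 for the mitotic genes, above the other 5 libraries. The mean over inhibitors, in which single genes move in different directions, reaches at most 0.06 in any library.

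For most of these genes the spread between libraries was larger than counting alone gives. In the 42 genes with recovered reads, counts ran from 86 in Cdc6 to 86161 in Ccnd1, and the variance between libraries of a group was a median of 2.69 times that of counting. The ratio was under 2 in 13 genes. In some of them, such as Mcm4 (0.539), Ccnb1 (0.583) and Cenpa (0.693), the spread was smaller than counting gives. It was highest in the abundant cyclins, at 192 in Ccnd1 and 97.2 in Ccnd2, and was 28.5 in Mki67 and 16.96 in Top2a.

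Other genes of the pathway were read from the same fit. Of 112 genes in 6 lists around the 44, 102 were tested, of which 2 rose and 0 fell, a share near the 2.09% called over all tested genes. Among 27 tested replication genes outside the 44, 0 passed and the median difference was -0.02. The smallest p was that of Tipin, a replication fork protector, with 8.01, 8.92 and 9.19 FPKM in AQP4-IgG 1 to 3 and 9.81, 9.88 and 11.9 FPKM in Control-IgG 1 to 3. Its groups did not overlap (difference -0.25, SE 0.0814, adjusted p = 0.211, limma).

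Among 28 tested mitotic genes outside the 44, 0 passed, the median was -0.04 and 22 were below 0. Control-IgG 2 was the highest library in 20 of these 28, as in the mitotic genes above. Anln, anillin, the scaffold of the cytokinetic ring, measured 7.74, 8.61 and 9.17 FPKM in AQP4-IgG 1 to 3, against 10.2, 12.005 and 10.9 FPKM in Control-IgG 1 to 3. Every AQP4-IgG library was below every Control-IgG library (difference -0.34, SE 0.0742), and the adjusted p of 0.0574 (limma) missed the threshold, while the authors' deposited table gives Anln an adjusted p of 0.0155. Over the alternatives the adjusted p of Anln ran from 0.00469, with limma-voom on recovered reads, to 0.194, without Control-IgG 2.

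In the Rb, E2F and MuvB list 13 genes were tested and 0 passed, with a median of -0.03. Its smallest p was that of E2f6, an E2F repressor, at 22.9 ± 1.7 FPKM in AQP4-IgG libraries and 24.7 ± 1.07 FPKM in Control-IgG libraries (adjusted p = 0.519, limma). Of 11 further inhibitors and checkpoint genes 0 passed, with a median of 0.04. Btg1, an antiproliferative factor, was nearest, with 10.2, 9.68 and 9.60 FPKM in AQP4-IgG 1 to 3 and 8.65, 7.88 and 7.46 FPKM in Control-IgG 1 to 3 (difference 0.27, SE 0.06, adjusted p = 0.0673, limma). Its libraries did not overlap, and over the alternatives the adjusted p ran from 0.0139, with limma-voom on recovered reads, to 0.226, without AQP4-IgG 1.

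The p53 target genes had differences above 0 in 12 of 12, between 0.01 and 0.21, against 6168 of 12334 tested genes above 0, and 0 passed. Their mean level relative to Control-IgG was 0.11, 0.11 and 0.03 in AQP4-IgG 1 to 3 and 0.08, 0.01 and -0.09 in Control-IgG 1 to 3, so the groups overlapped, with a mean pairwise r of 0.271. Eda2r, a p53-induced receptor, measured 11.4, 12.5 and 11.5 FPKM in AQP4-IgG 1 to 3, and 10.5, 10.3 and 9.37 FPKM in Control-IgG 1 to 3 (difference 0.21, adjusted p = 0.14, limma). Its libraries did not overlap. The adjusted p was 0.0443 with limma-voom on recovered reads, 0.0732 after quantile normalization, and up to 0.422 over the alternatives.

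Both genes that rose belong to the list of quiescence and mitogen response, in which 11 were tested, the median was -0.02 and 8 differences were below 0. Gas1, a membrane protein first found in growth-arrested mouse fibroblasts and a Hedgehog co-receptor, measured 13.1, 12.6 and 10.03 FPKM in AQP4-IgG 1 to 3, against 7.57, 6.22 and 6.43 FPKM in Control-IgG 1 to 3. It rose by 0.74 on the log2 scale (SE 0.105, adjusted p = 0.0158, limma). Fgf2, an astrocyte mitogen, measured 18.2, 18.1 and 16.7 FPKM in AQP4-IgG 1 to 3, and 14.1, 13.5 and 13.3 FPKM in Control-IgG 1 to 3. It rose by 0.35 (SE 0.0495, adjusted p = 0.0118, limma). The groups did not overlap in either gene. Without AQP4-IgG 1, AQP4-IgG 2 or Control-IgG 2 neither gene passed (adjusted p between 0.057 and 0.0849, limma), and Gas1 did not pass without Control-IgG 3 (adjusted p = 0.0714). The exons of Gas1 overlap those of Gm48488 on the opposite strand over 19.9% of their length. Those of Fgf2 overlap Nudt6, on the opposite strand, and Gm43439 over 13.2%, and whether reads were counted by strand is not given in the sources used here.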

How the data were processed

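RNA of 3 AQP4-IgG and 3 Control-IgG libraries was extracted with an RNeasy kit and made into libraries with a SMARTer mRNA kit, per the labels' protocols. The submitters' processing notes name the builds GRCm38 and mm10, with no aligner, counter or strandedness given in the sources used here. The deposited table of 14147 genes gives FPKM per library, a unit read from the values, with the authors' log2 fold change, p-value and adjusted p per gene. Its columns of values were matched to the samples by group and replicate number.

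FPKM was tested as log2(FPKM + 1) with limma 3.58.1 (trend and robust variance, R 4.3.3) in the 12334 genes that averaged 1 FPKM or more across all 6 libraries, leaving out 1813. P-values were adjusted by Benjamini and Hochberg over all tested genes. With 3 libraries in each group the smallest p of an exact permutation is 0.1, so none is given. Whole reads were recovered from FPKM with the union exon lengths of GENCODE M21 for the 13306 genes whose coordinates equal it. Within 0.1 read, 98.994% to 99.142% of the values under 200 reads came out whole. Limma-voom on these reads (11550 genes, scaled to library totals) was an alternative, with 489 genes called against 258. Cdkn1a and Cdkn2b lie outside these genes. No pair of libraries of a group was a duplicate, with a chi-square per gene of 4.04 to 7.53.

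The 44 genes, the lists around them and the marker lists were chosen with earlier results of these data known. The genes given with every library's value were, for each role without a gene past the threshold, the 2 with the smallest p and the 1 with the highest mean, and also Mki67, Top2a, Mcm2, Pcna, Ccnd1 and Cdkn1a. From each pathway list the genes past the threshold, or else the gene with the smallest p, were named. Other values of single libraries were picked after they were seen. Shared sequence was counted as the share of a gene's 50-base stretches that occur in transcripts of other genes.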

Additional observations from a re-analysis of the deposited data

How the results depend on the processing

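The count of the 44 genes past the threshold was 0 under each of the 15 alternatives, with a lowest adjusted p of 0.147 (Ccna2, replicate block). Over all genes, 607 passed with the replicate number as a block, 489 with limma-voom, 485 with limma-voom after quantile normalization, chosen after seeing the data, and 55 to 391 when each library was left out in turn, against 258. Same-numbered libraries deviated together at r = 0.2, 0.00891 and 0.202. Differently numbered libraries of the 2 groups ran from -0.268 (AQP4-IgG 3 with Control-IgG 1) to 0.0818 (AQP4-IgG 3 with Control-IgG 2). The labels do not say that equal numbers mark pairs, so the main fit had no block. Whether they are pairs was not tested, and the main fit would ignore such a pairing. With the block, 7 of the 44 genes reached an unadjusted p under 0.05, against 2, while the genes called over all tested genes were 607, against 258. The share of all tested genes at that unadjusted p with the block was not counted.

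Of the pathway lists, 2 genes passed, against 4 with the block, 6 with limma-voom, 4 after quantile normalization, 1 at a mean of at least 10 FPKM and 0 to 5 with a library left out. At a mean of at least 10 FPKM 13 of the 44 genes were tested, 5 differences were below 0, and the mitotic median, from Cdc20, was 0.0136. With limma-voom, which covered 3 inhibitors, the inhibitor median was -0.0209, and -0.0317 after quantile normalization. With a library left out, 22 to 35 of the 44 differences were below 0, the inhibitor median was 0.0076 to 0.0519 and the licensing median -0.12 to -0.0126, lowest in size without Control-IgG 1. The mitotic median ran from -0.09 to -0.01, the last without Control-IgG 2. In the bases from -150 to -1, 35.7% of mitotic promoters held a CHR match. Among 625 values of the 44 genes, 39 had the other sign, in 18 genes with differences of at most 0.10 in size. The intervals given limit what 3 libraries a group can show, and Control-IgG 2 was the shallowest library.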
